A study of Homo sapiens with 20 samples.

Results

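The transcriptomes of human pancreatic progenitors (PPs) and of the islet-like organoids (hILOs) made from such cells were compared in cells that lack *ALKBH5*. The members were chosen by their labels and are 4 of the 20 RNA-seq libraries of the series, namely 2 libraries of A5-KO hILOs and 2 of A5-KO PPs collected at 0 h, before any actinomycin D. The 4 WT libraries of the same stages, 2 of hILOs and 2 of untreated PPs, served only to show which stage changes differ between the genotypes. All cells came from the MEL1 human embryonic stem cell line, in which 1 *INS* allele carries a GFP reporter, and A5-KO is a homozygous knockout line made from it with CRISPR-Cpf1 and guides against the first exon of *ALKBH5*. Both genotypes received the same media: activin A with the Wnt activator CHIR99021, then KGF, then KGF with retinoic acid, vitamin C, the BMP receptor inhibitor LDN-193189 and the Hedgehog inhibitor GDC-0449, and until day 14 EGF (50 ng/ml) with vitamin C and LDN-193189, after which PPs were collected. The hILOs were then kept as suspended aggregates in medium with zinc sulfate (10 μM), T3 (1 μM), compound E (0.1 μM), 616452 (10 μM), LDN-193189, heparin and vitamin C. The labels give this medium to day 22. The study's methods add a later medium, up to day 30, that keeps zinc sulfate, T3, 616452, heparin and vitamin C, leaves out compound E and LDN-193189 and adds N-acetyl cysteine and trolox, and the labels do not give the day of collection. All 8 libraries therefore come from 1 parental line and the knockout from 1 derived line, so that a property of that line and the loss of *ALKBH5* cannot be told apart. The labels do not say whether libraries with different replicate numbers came from separate differentiations. The *p*-values rest on the spread between these libraries, which may be technical, with an estimate partly shared over all genes.

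ALKBH5 is an enzyme that removes N6-methyladenosine (m6A), the most common internal mark of messenger RNA, from transcripts. PPs are dividing cells that hold PDX1, NKX6-1 and SOX9. In the embryonic pancreas such cells pass through a NEUROG3-positive precursor, leave the cell cycle and become islet cells that store insulin, glucagon, somatostatin or pancreatic polypeptide in dense-core granules. Inhibition of γ-secretase, which compound E brings about, blocks Notch signalling, and 616452 inhibits the receptor for TGF-β.

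The deposited hILO values are TPM and the PP values are CPM, so a gene's level was compared through its rank. Each of the 19836 nuclear protein-coding genes was ranked within its library after PP values had been divided by exon length, and each rank was given the level that the same rank has on a reference common to all 8 libraries. Stage change means the rank-matched level in hILOs minus that in PPs on the log2 scale, with 1 added to each level. A gene was counted as higher or lower when the means differed by 1 or more and the 2 libraries of each stage did not overlap. This comparison crosses tables that were normalized separately and libraries that were made with different RNA kits, RNA inputs and spike-ins, which cannot be told apart from the stage, so it is a description without a test. The genotypes were compared within each table first, so what shifts a gene equally in both genotypes cancels. An effect that is not equal, such as that of the 1 added where PP values are near 0, does not cancel. Whether the stage change itself differed between A5-KO and WT was tested with limma over 14297 genes. These were the genes whose mean reached 1 in the hILO or the PP table. A difference was called at an adjusted *p* below 0.05 and a size over 1.5-fold. The hILO tables sum to between 887320 and 924887 and keep no read depth, while the CPM gave back between 32273734 and 34835774 reads per PP library. Replicates differed by a median of 0.096 to 0.120 on the log2 scale.

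Some genes could not be read at the PP stage. Of the genes with at least 20 TPM in every hILO library, 239 of 265 (90.2%) that share over 80% of their exon bases with another gene were listed under 0.5 CPM in every untreated PP library, as were 98 of 191 (51.3%) with a copy on alternate contigs of the genome, against 33 of 2416 (1.37%) with neither. Among the 19836 genes, 2693 shared 30% or more of their exon bases or lay 50% or more on alternate contigs, and they are called not readable here. *INS*, *CHGA* and *NKX2-2* belong to them.

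*ALKBH5* (chr17:18183078-18209954, plus strand, GRCh38) was low in A5-KO cells at both stages. Its PP values were 19.1 and 18.8 CPM in A5-KO and 149 and 172 CPM in WT, and its hILO values were 4.16 and 3.42 TPM in A5-KO and 78.8 and 81.9 TPM in WT. No A5-KO library overlapped WT at either stage. The rank-matched level was lower in A5-KO by 3.08 on the log2 scale in PPs (limma, adjusted *p* = 0.00021) and by 4.27 in hILOs (adjusted *p* = 2.3e-05). *ALKBH5* was lower in hILOs than in PPs in both genotypes, with a stage change of -2.46 in A5-KO and -1.27 in WT (difference -1.19, SE 0.14, adjusted *p* = 0.0061).

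The markers of both stages were partly met. In A5-KO PPs, *PDX1*, *NKX6-1* and *SOX9* lay between the 97.4th and 98.1st percentile of the ranked genes. *ONECUT1* lay at the 49.3rd and 47th percentile, and *PTF1A*, which marks multipotent progenitors, was at 0.464 and 0.264 CPM. In A5-KO hILOs, *TTR*, *CHGA*, *INS* and *AFP* held ranks 1 to 4 among all genes of both libraries. *TTR* and *AFP* are plasma protein genes of fetal liver, and *TTR* is also made by islet cells. The intestinal factor *CDX2* was at 195 and 192 CPM in A5-KO PPs and at 71.3 and 67.4 TPM in A5-KO hILOs. The part of such other cell types in the results was not tested.

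A5-KO cells showed most of the stage changes that WT cells showed. Both genotypes cross the same tables, so a difference between the tables would appear in both. Its part in the overlap was not tested. In A5-KO, 3332 genes were higher in hILOs than in PPs and 4514 were lower. Of the genes tested these were 3331 (23.3%) and 4359 (30.5%), and the shares in WT were 22.5% and 29.7%. The genes higher in both genotypes numbered 2890, which is 86.7% of the A5-KO list and 89.8% of the WT list. Lower in both were 3739, or 82.8% of the A5-KO list and 84.8% of the WT list. Only 6 genes passed the limits in opposite directions. Among the genes higher in A5-KO hILOs 1317 (39.5%) were not readable, against 111 (2.46%) of those lower, and 660 were listed at 0 in both A5-KO PP libraries, so that their stage changes depend on the value added before the logarithm. When readable genes alone were ranked, 2653 were higher and 2981 were lower (21.2% and 23.9% of the readable genes tested), and 82.5% and 78.1% of these had the same direction in WT. The median stage change over all genes tested was -0.30 in each genotype.

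The size of the stage change differed between the genotypes for 562 genes in the positive direction (3.93% of those tested) and for 615 in the negative direction (4.3%). Setting the average stage change of both genotypes against this difference gave 4 classes with an average change of at least 1. Genes lower in hILOs whose change was larger in A5-KO were the most numerous, at 298, followed by 248 genes higher in hILOs whose change was larger in A5-KO. Blunted changes were fewer, with 131 among genes higher in hILOs and 104 among genes lower in hILOs, and 396 genes had an average change below 1. In the 298 genes the genotypes differed in hILOs but not PPs for 209, in PPs only for 18, in both for 6 and by neither test for 65. In the 104 genes with a blunted decrease, hILOs alone and PPs alone accounted for 30 genes each. Over all genes, A5-KO differed from WT at 769 higher (5.38%) and 792 lower (5.54%) genes in hILOs, and at 146 (1.02%) and 127 (0.888%) in PPs. The counts depended on the PP libraries: without replicate 2 of the WT PPs they were 251 and 307, without replicate 1 of the WT PPs 297 and 331, and without replicate 1 of the A5-KO PPs 333 genes were more positive. Without rank matching, 391 genes were more positive and 846 more negative, and 31.6% rather than 47.7% of calls were then positive. Of the called genes, 39 of the more positive and 20 of the more negative were listed at 0 in all 4 PP libraries, so that their difference is that between the hILOs alone. With these included, 137 of the more positive and 75 of the more negative were under 1 CPM in all 4 PP libraries. For them the PP values were close to 0 and the difference came mostly from the hILOs. Not readable in PPs were 70 of the more positive and 40 of the more negative genes. When readable genes alone were ranked and tested, 482 (3.89%) were more positive and 584 (4.72%) more negative.

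**Figure D1:**
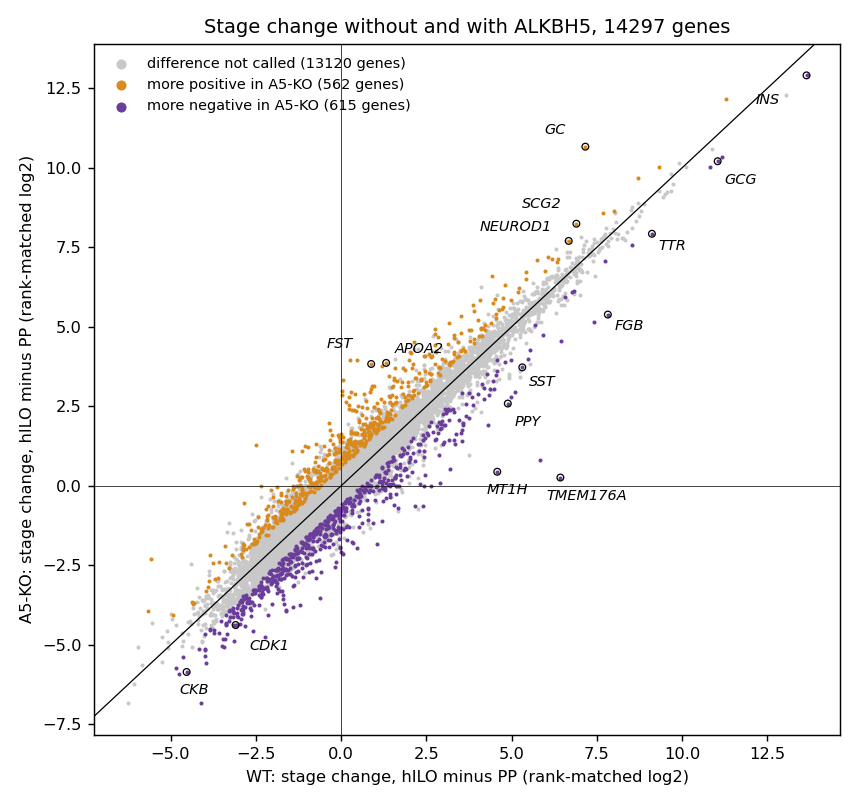
Stage change (hILO minus PP, rank-matched log2 level) of 14297 genes in WT on the horizontal axis and in A5-KO on the vertical axis, each point a gene and its values means of 2 libraries per stage and genotype. The diagonal marks equal changes, orange points are the 562 genes with a more positive change in A5-KO, purple points the 615 with a more negative one, and the 13120 grey points were not called. Most genes lie along the diagonal, *TMEM176A* and *MT1H* lie near 0 in A5-KO but not in WT, and *CDK1* and *CKB* lie below the diagonal on the side of decreases.

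The largest stage changes in A5-KO were increases of hormone and granule genes among others. *INS*, *CHGA*, *GAST*, *GC* and *MIF* led the increases, and among readable genes *GAST*, *GC*, *GCG*, *CRYBA2* and *FXYD2* did. *GAST*, which encodes gastrin, was listed at 0 in every PP library, at 4459 and 4403 TPM in A5-KO hILOs and at 2662 and 2679 TPM in WT hILOs. *GC*, the vitamin D binding protein found in liver and alpha cells, was at 0 and 0.0879 CPM in A5-KO PPs and reached 1775 and 1692 TPM in A5-KO hILOs against 602 and 298 TPM in WT hILOs. The stage change of *GC* was larger in A5-KO by 3.50 (SE 0.44, limma adjusted *p* = 0.0071). The largest decreases were those of *LGI4*, *SHISA2*, *GNRH2*, *LIN28A* and *CKB*, with stage changes of -6.84, -6.81, -6.24, -5.92 and -5.85. *CKB*, brain-type creatine kinase, was the first-ranked gene of both A5-KO PP libraries at 7669 and 9346 CPM and was at 286 and 291 TPM in A5-KO hILOs, where WT hILOs had 787 and 761 TPM. Its decrease was larger in A5-KO by 1.32 (stage change -5.85 against -4.53, SE 0.04, adjusted *p* = 0.00035).

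Islet hormone genes were higher in hILOs than in PPs also without *ALKBH5*, but most reached lower levels. All 5 hormone genes tested were higher in A5-KO hILOs than in A5-KO PPs, as in WT, against 23.3% of all genes tested in A5-KO. Over all genes tested 4.3% were more negative in A5-KO, and 4 of the 5 (80%) had a smaller stage change in A5-KO. With a pseudocount of 0.1, or without either of the WT PP libraries, 3 of the 5 did. *INS* was listed at 0 in every PP library, where it was not readable because 37.5% of its exon bases are shared with *INS-IGF2*, and at 7605 and 7606 TPM in A5-KO hILOs against 13033 and 12978 TPM in WT hILOs. The A5-KO libraries lay below both WT libraries, with a difference of -0.74 on the log2 scale (SE 0.06, limma adjusted *p* = 0.0019). Its rank-matched level hardly differed between replicates, with differences from -0.7433 to -0.7426 over the 8 fits that left out a library. The SE of *INS* thus comes mostly from the spread that limma shares over genes. In such bulk libraries, fewer cells of a type and less RNA per cell cannot be told apart. *GCG*, the glucagon gene of alpha cells, was also at 0 in every PP library and at 1267 and 1266 TPM in A5-KO hILOs, against 2192 and 2270 TPM in WT hILOs (difference -0.84, SE 0.07, adjusted *p* = 0.0027). *SST*, the somatostatin gene of delta cells, was at 1.11 and 0.791 CPM in A5-KO PPs and 1.29 and 0.837 CPM in WT PPs. In hILOs it was at 108 and 107 TPM in A5-KO and at 381 and 366 TPM in WT. Its stage change was 3.73 in A5-KO and 5.31 in WT (difference -1.59, SE 0.21, adjusted *p* = 0.0081).

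*PPY*, pancreatic polypeptide, had the most blunted change of the hormones. It was at 16.2 and 11.1 TPM in A5-KO hILOs and 101 and 80.1 TPM in WT hILOs, from 0.31 CPM or less in PPs, and its stage change was 2.59 against 4.89 (difference -2.30, SE 0.36, adjusted *p* = 0.013). The call for *PPY* was lost without either WT PP library (adjusted *p* up to 0.054). *GHRL*, the ghrelin gene, behaved otherwise: A5-KO hILOs (34.9 and 25.9 TPM) overlapped WT hILOs (19.3 and 32 TPM), and the difference was 0.20 (adjusted *p* = 0.80). *IAPP*, a product of mature beta cells, stayed at 0.785 and 1.35 TPM in A5-KO hILOs and was too low to be tested.

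Genes of the hormone granule were mostly higher in A5-KO hILOs than in A5-KO PPs. Of 14 granin and prohormone processing genes tested, 13 were higher in hILOs in each genotype (92.9% in A5-KO, against 23.3% of all genes tested). The stage change was more positive in A5-KO for 1 (7.14%, against 3.93% of all genes) and more negative for 2 (14.3%, against 4.3%). *SCG2*, a granin, was at 4.11 and 4.69 CPM in A5-KO PPs and 4.28 and 5.36 CPM in WT PPs, and at 2382 and 2354 TPM in A5-KO hILOs against 1256 and 1279 TPM in WT hILOs. Its stage change was 8.24 in A5-KO and 6.90 in WT (difference 1.34, SE 0.16, limma adjusted *p* = 0.0061), the opposite direction to *INS*, *GCG*, *SST* and *PPY*. *PAM*, which amidates peptide ends, was the exception to the increase, with 122 and 114 CPM in A5-KO PPs and 13.6 and 18.9 TPM in A5-KO hILOs, against 53.4 and 93.1 TPM in WT hILOs. The stage change of *PAM* was -1.93 in A5-KO and -0.04 in WT (adjusted *p* = 0.029). *PCSK1*, the convertase that opens proinsulin, was at 188 and 186 TPM in A5-KO and 288 and 254 TPM in WT hILOs (difference -0.67, adjusted *p* = 0.021). The calls for *PAM* and *PCSK1* were each lost in 5 of the 8 fits that left out a library, at adjusted *p* values up to 0.095 and 0.066. *PCSK2*, *CHGB*, *SCG3* and *SLC30A8*, the granule zinc transporter, were higher by 6.74, 6.39, 7.11 and 3.9 in A5-KO hILOs, and their differences from WT were between -0.19 and 0.18 with adjusted *p* values of 0.62 or more.

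The machinery of secretion followed the granins. Of 21 exocytosis and excitability genes tested, 15 were higher in hILOs in each genotype and none was lower. In A5-KO these were 71.4%, against 23.3% of all genes tested. *ABCC8*, the sulfonylurea receptor subunit of the ATP-sensitive potassium channel, was at 0 in both A5-KO PP libraries and at 71 and 69.2 TPM in A5-KO hILOs (56.4 and 58.9 TPM in WT hILOs), and *STX1A* and *SNAP25* had stage changes of 4.37 and 4.36 in A5-KO. Differences were called for *SLC2A2*, *SYT13* and *G6PC2*. *SLC2A2*, the glucose transporter of beta cells and hepatocytes, was at 23.6 and 23.7 CPM in A5-KO PPs and 18.7 and 16.4 CPM in WT PPs, and at 21.4 and 19.6 TPM in A5-KO hILOs and 30.8 and 27.3 TPM in WT hILOs. Its difference of stage changes was -0.81 (SE 0.12, adjusted *p* = 0.012). Of the calls in this group, those of *SYT13* and *G6PC2* were lost in 7 and 6 of the 8 fits that left out a library (adjusted *p* up to 0.084 and 0.087).

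Most endocrine transcription factors were higher in hILOs with or without *ALKBH5*. Of 23 tested, 16 (69.6%) were higher and 3 (13%) lower in A5-KO hILOs than in A5-KO PPs, against 16 and 5 in WT. Over all genes tested the A5-KO shares were 23.3% and 30.5%. The stage change was more positive in A5-KO for 1 (4.35%, against 3.93% of all genes) and more negative for 3 (13%, against 4.3%). *FEV*, *NEUROD1*, *LMX1A* and *ISL1* led with stage changes of 7.92, 7.70, 6.56 and 5.80 in A5-KO. *NEUROD1*, a target of NEUROG3 that drives endocrine differentiation, was at 0.494 and 0.879 CPM in A5-KO PPs and at 352 and 350 TPM in A5-KO hILOs, with 208 and 209 TPM in WT hILOs. Its increase was thus exaggerated in A5-KO by 1.03 (SE 0.17, limma adjusted *p* = 0.016). The call for *NEUROD1* was lost with a pseudocount of 0.1 and with a replicate block (limma, adjusted *p* up to 0.069). It was lost also without either WT hILO library or replicate 2 of the A5-KO hILOs (differences from 0.89 to 1.17 over the 8 fits that left out a library). *PAX4*, a factor of beta cell precursors, was higher by 4.36 in A5-KO, and the adjusted *p* of its difference from WT was 0.089. *MAFA*, a factor of mature beta cells, was below 1 in all A5-KO libraries at both stages and at 3.14 and 1.71 TPM in WT hILOs. *NEUROG3* itself was at 2.5 and 2.05 CPM in A5-KO PPs and at 0.586 and 0.747 TPM in A5-KO hILOs, whereas WT hILOs had 2.38 and 2.44 TPM (stage changes -2.30 and -1.59, adjusted *p* = 0.057).

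*RFX6* and *HHEX* differed in the stage that carried the difference. *RFX6*, a factor of endoderm and islet cells, was at 15.4 and 9.90 CPM in A5-KO PPs and 4.88 and 3.47 CPM in WT PPs, while hILOs of the genotypes were at 133 and 122 TPM and at 108 and 112 TPM. Its level was higher in A5-KO PPs by 1.17 (limma, adjusted *p* = 0.018) and differed by 0.22 in hILOs (adjusted *p* = 0.39), so the smaller stage change of 3.19 against 4.14 (adjusted *p* = 0.047) went with a higher starting level. *HHEX*, which delta cells keep, was at 33.9 and 27.2 CPM in A5-KO PPs and 25.2 and 19.4 CPM in WT PPs, and ended lower, at 2.41 and 2.61 TPM in A5-KO hILOs against 5.58 and 6.77 TPM in WT hILOs (difference -1.43, SE 0.23, adjusted *p* = 0.014). The call for *RFX6* was lost in 7 of the 8 fits that left out a library (adjusted *p* up to 0.13), and that for *HHEX* in the fit without replicate 2 of the WT PPs (adjusted *p* = 0.054).

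**Figure D2:**
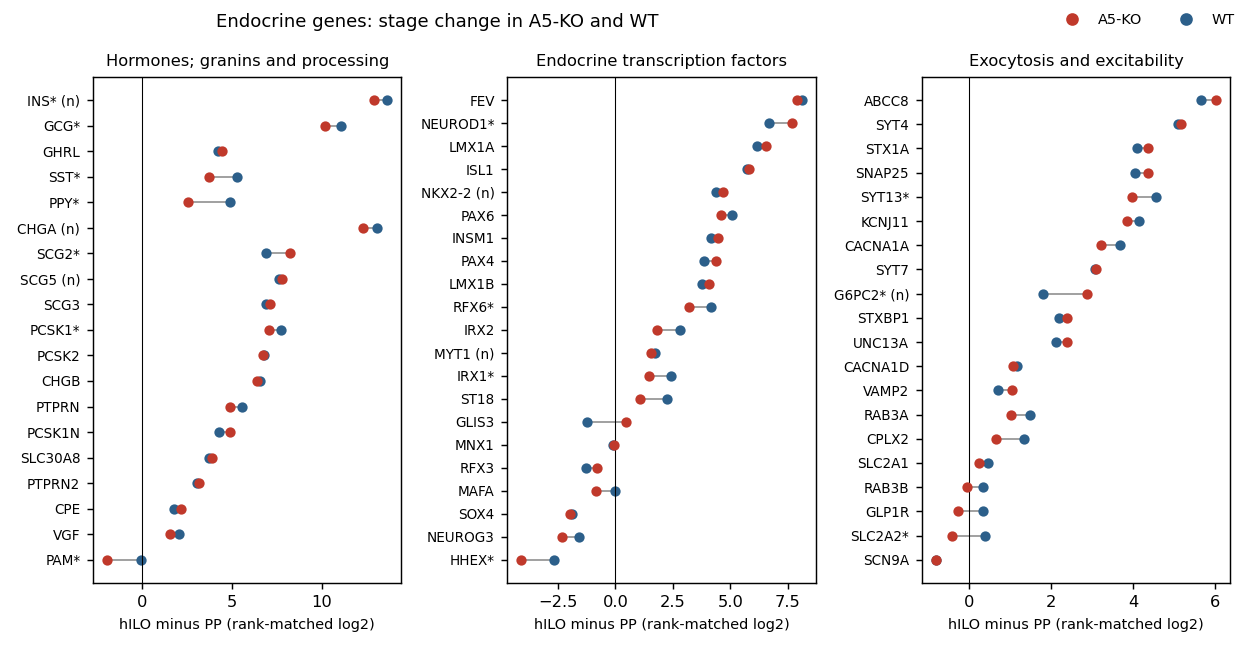
Stage change (hILO minus PP, rank-matched log2 level, horizontal axis) of islet hormones and granule genes (left), endocrine transcription factors (middle) and exocytosis and excitability genes (right) that were tested and are reported, with A5-KO in red, WT in blue and a line joining the genotypes of each gene. An asterisk marks a called difference and (n) a PP level that is not readable. Hormones lie to the right in both genotypes with the red point of *SST* and *PPY* well to the left of the blue one, *SCG2* and *NEUROD1* show the reverse order, and *PAM* and *HHEX* lie furthest to the left in A5-KO in their panels.

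Most progenitor transcription factors were lower in hILOs in both genotypes. Of 18 tested, none was higher and 13 (72.2%, against 30.5% of all genes tested) were lower in A5-KO hILOs. In WT 1 was higher and 12 were lower. The median stage change was -1.43 in A5-KO and -1.51 in WT. *PDX1*, which beta cells keep, was at 168 and 153 CPM in A5-KO PPs and 83.0 and 77.2 TPM in A5-KO hILOs (200 and 156 CPM, then 71.8 and 71.2 TPM in WT), with stage changes of -1.70 and -2.0 (limma, adjusted *p* = 0.30). *NKX6-1* was at 253 and 241 CPM and then 96.3 and 94.5 TPM in A5-KO, and *SOX9*, a gene of progenitors and ducts, at 292 and 227 CPM and then 44.8 and 41.9 TPM. Their stage changes were -1.46 and -2.63 in A5-KO and -1.79 and -2.64 in WT, with adjusted *p* values of 0.24 and 1 for the differences. *ONECUT1* was lower in A5-KO than in WT at both stages, at 7.23 and 5.33 against 18.7 and 17.1 CPM in PPs and at 1.1 and 0.700 against 2.18 and 3.65 TPM in hILOs, and its stage change was -1.80 and -2.22 (adjusted *p* of the difference = 0.37). *MNX1* barely differed between stages, with changes of -0.06 in A5-KO and -0.08 in WT.

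Differences were called for *FOXA1*, *HES1* and *YAP1*, all more negative in A5-KO. *FOXA1*, a pioneer factor of endoderm, was at 49.4 and 40.1 CPM in A5-KO PPs against 21.0 and 13.9 CPM in WT PPs, and hILOs were at 63.3 and 58.0 against 66.3 and 64.2 TPM. Like *RFX6*, *FOXA1* started higher in A5-KO (by 1.27, adjusted *p* = 0.011) and was not called in hILOs (difference -0.09, adjusted *p* = 0.72), which gave stage changes of 0.54 and 1.89 (limma, adjusted *p* of the difference = 0.013). *YAP1*, the effector of the Hippo pathway, had stage changes of -1.41 in A5-KO and -0.68 in WT (adjusted *p* = 0.0099). *HES1*, the main Notch target that holds back endocrine differentiation, was at 66.6 and 60.0 CPM in A5-KO PPs and 55.8 and 46.2 CPM in WT PPs. In hILOs it was at 27.1 and 24.4 TPM in A5-KO, below the 44.6 and 44.1 TPM of WT, and its decrease was larger in A5-KO by 1.03 (SE 0.15, adjusted *p* = 0.011).

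Most other Notch genes were lower in hILOs in both genotypes, with few called differences. Of 18 genes tested, 14 (77.8%, against 30.5% of all genes tested) were lower in A5-KO and 13 in WT. A difference was called for 1 gene in each direction (5.56%, against 3.93% positive and 4.3% negative over all genes). The receptor *NOTCH2* was at 415 and 368 CPM in A5-KO PPs and at 0.970 and 1.42 TPM in A5-KO hILOs, with WT at 405 and 400 CPM and 1.19 and 1.11 TPM. *NOTCH1* and *NOTCH3* had stage changes of -3.43 and -4.54 in A5-KO and -3.58 and -4.10 in WT. The ligand *DLL4* was higher in hILOs by 2.77 in A5-KO and 2.60 in WT, as was the ligand *DLL1*, not readable in PPs, by 1.51 and 1.37. The target *HEY2*, the only Notch gene with a more positive change in A5-KO, had stage changes of -2.16 and -2.93 (limma, adjusted *p* = 0.021), and its call was lost without any 1 of the 4 PP libraries (adjusted *p* up to 0.082). Genes that ERK signalling induces showed the same picture: 14 of 19 were lower in hILOs in each genotype (73.7% in A5-KO, against 30.5% of all genes tested). Among these were *SPRY1*, *SPRY2* and *DUSP6*, feedback inhibitors of receptor kinases, with stage changes of -4.00, -3.84 and -2.80 in A5-KO. The only called difference among the 19 was that of *ETV4*, a transcription factor induced by FGF and EGF. In PPs *ETV4* was at 144 and 143 CPM in A5-KO and at 147 CPM in both WT libraries. In hILOs it was at 12.9 and 13.6 TPM in A5-KO and at 28.4 and 24.1 TPM in WT (difference -0.86, SE 0.12, limma adjusted *p* = 0.011).

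Nearly all replication and mitosis genes were lower in hILOs, and the change was called as larger in A5-KO for most of them. Of 30 genes tested, 29 (96.7%, against 30.5% of all genes tested) were lower in A5-KO hILOs than in A5-KO PPs. The other, *NUSAP1*, was higher in hILOs but not readable in PPs. WT had 27 lower. All 30 differences between the genotypes were below 0 and 21 of the 30 (70%) were called, against 4.3% of all genes tested, and the median stage change was -3.33 in A5-KO and -2.64 in WT. The calls among these genes ranged from 13 to 24 over the alternatives and were 13 without replicate 1 and 14 without replicate 2 of the WT PPs. The genotypes differed in hILOs, where 17 (56.7%, against 5.54% of all genes tested) were lower in A5-KO, and for none in PPs. *CDK1*, the kinase that starts mitosis, was at 149 and 133 CPM in A5-KO PPs and 129 and 121 CPM in WT PPs, and at 7.19 and 6.82 TPM in A5-KO hILOs and 17.0 and 15.2 TPM in WT hILOs. Its stage change was -4.37 in A5-KO and -3.09 in WT (difference -1.28, SE 0.13, limma adjusted *p* = 0.0039).

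*MCM2*, a subunit of the replicative helicase, was at 111 and 113 CPM in A5-KO PPs and 98.1 and 97.7 CPM in WT PPs, and at 14.4 and 15.9 TPM in A5-KO hILOs against 31.1 and 27.8 TPM in WT hILOs (difference -1.09, SE 0.12, limma adjusted *p* = 0.0051). *MCM3* to *MCM7*, *RRM2*, which supplies deoxynucleotides, *TOP2A* and *BIRC5* were called as well, with differences between -0.63 and -1.0. *MKI67*, the Ki-67 antigen, had stage changes of -3.93 and -3.43, and its difference was not called (adjusted *p* = 0.089). As percentiles, the 27 readable genes of this group had medians of 93.2 and 92.9 in the A5-KO PP libraries and 93.2 and 92.3 in WT PPs. In hILOs the medians were 53.1 and 53.7 in A5-KO and 63.2 and 62.7 in WT. *CCNA2* and *BUB1* lost their calls in 5 and 6 of the 8 fits that left out a library (adjusted *p* up to 0.081 and 0.11).

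**Figure D3:**
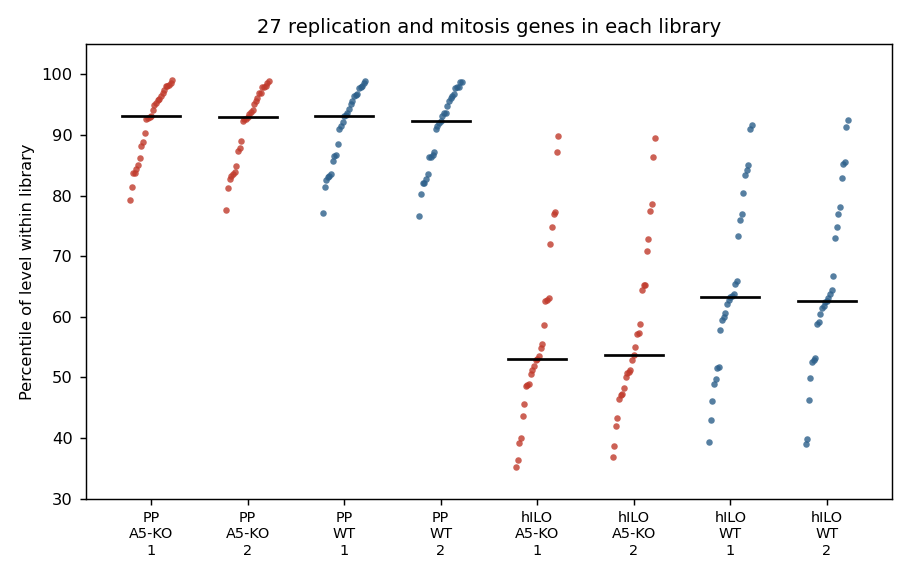
Percentile of each of 27 readable replication and mitosis genes among all ranked protein-coding genes (vertical axis, from 30), in each of the 8 libraries (horizontal axis), with 1 point per gene and a bar at the median. The 4 PP libraries have medians between 92.3 and 93.2 in both genotypes, and the A5-KO hILOs, at 53.1 and 53.7, lie below the WT hILOs at 63.2 and 62.7.

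BMP and TGF-β response genes were mixed. Of 20 tested, 11 (55%) were lower and 1 (5%) higher in A5-KO hILOs, against 30.5% and 23.3% of all genes tested. Stage changes were more positive than in WT for 2 (10%, against 3.93% of all genes) and more negative for 4 (20%, against 4.3%). *FST*, follistatin, which binds activin, was nearly absent from PPs (0.124 and 0 CPM in A5-KO, 0.0574 and 0.217 CPM in WT). It reached 16.6 and 16.3 TPM in A5-KO hILOs and 2.06 and 2.97 TPM in WT hILOs. Its stage change was 3.83 in A5-KO and 0.88 in WT (difference 2.95, SE 0.29, limma adjusted *p* = 0.0036). *LEFTY1*, an inhibitor of Nodal that was not readable in PPs, was at 14.9 and 13.4 TPM in A5-KO hILOs and 44 and 43.8 TPM in WT hILOs (difference of stage changes -1.41, adjusted *p* = 0.0067). Of the BMP targets, *ID1* and *ID3* had stage changes of -1.49 and -1.97 in A5-KO without a called difference. Those of *ID2* and *ID4* were called at -0.99 and -0.90 and were each lost in 6 of the 8 fits that left out a library (adjusted *p* up to 0.10 and 0.077).

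The hILO medium holds zinc, and metallothioneins, small proteins that bind zinc and copper and are induced by them through the factor MTF1, were among the genes higher in hILOs. Their core metal response element was searched as TGCACNC or TGCGCNC, where N is any base, on both strands of RefSeq promoters (250 bases before to 50 after the start, GRCh38.p14). *MT1H* and *MT2A* promoters held 8 matches each, that of *MT1X* 4 and that of *MT1B* 3. Of the 35116 promoters searched, 29.6% held at least 1 match, 2.30% at least 3 and 0.601% at least 4. *MTF1* itself had no match. The metallothionein genes *MT1A*, *MT1E*, *MT1F*, *MT1G*, *MT1M* and *MT3* were not analysed here for this motif. A match of each of the 4 metallothionein promoters is shown with the motif in capitals and 8 flanking bases on each side. The genes that carry these elements differ in their stage change.
*MT1H* (chr16:56669798-56669820, plus strand): ccaactgtTGCGCTCcaccacgc
*MT2A* (chr16:56608568-56608590, plus strand): tgccgcgcTGCACTCcaccacgc
*MT1X* (chr16:56682409-56682431, plus strand): ggggcctcTGCGCCCggccctct
*MT1B* (chr16:56651825-56651847, plus strand): ggggcctcTGCACCCcaccacct

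Metallothioneins were higher in hILOs than in PPs in A5-KO too, but reached lower levels than in WT. Of 13 metallothionein and zinc transport genes tested, 9 (69.2%, against 23.3% of all genes tested) were higher in A5-KO hILOs than in A5-KO PPs. In WT 10 were. Lower in A5-KO hILOs than in WT hILOs were 8 (61.5%, against 5.54% of all genes). *MT1X* was at 0.309 and 0.586 CPM in A5-KO PPs and at 94.4 and 93.4 TPM in A5-KO hILOs, against 175 and 184 TPM in WT hILOs, and *MT2A* was at 72.9 and 72.0 TPM against 150 and 155 TPM. The stage changes of these 2 genes were 5.15 and 3.61 in A5-KO and 5.74 and 4.23 in WT, differences that were not called (limma, adjusted *p* = 0.14 and 0.26). The stage change was called as more negative for *MT1G* and *MT1H*. *MT1G* was at 70.6 and 79.0 TPM in A5-KO hILOs and 236 and 223 TPM in WT hILOs (stage changes 4.55 and 6.46, adjusted *p* = 0.018), a call lost in 4 of the 8 fits that left out a library (adjusted *p* up to 0.061). *MT1H* was nearly silent in A5-KO, at 0.417 and 0.639 TPM in hILOs against 40.2 and 34.2 TPM in WT hILOs, with 0.124 CPM or less in all PP libraries. Its stage change was 0.44 in A5-KO and 4.58 in WT (difference -4.13, SE 0.46, adjusted *p* = 0.0047), and with a pseudocount of 0.1 the adjusted *p* was 0.11. Metallothionein genes are near-identical copies of one another, and how their reads were shared out is not given in the sources used here. The exporter *SLC30A1* and the importer *SLC39A10* had stage changes of -0.92 and -3.15 in A5-KO and of -1.23 and -2.89 in WT, without a called difference.

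Thyroid hormone (T3) was also added for hILOs, and the stage changes of *DIO1* and *DIO3*, which encode enzymes that remove iodine from thyroid hormones, were more positive in A5-KO. Of 10 thyroid hormone genes tested, 3 (30%, against 3.93% of all genes tested) had a more positive stage change in A5-KO and none a more negative one. With a pseudocount of 0.1 or a replicate block, 2 were called as more positive. The median difference over the 10 was -0.003, with 5 genes below 0 and 5 above. *DIO3*, which inactivates T3 and is induced by it, was at 4.11 and 3.43 CPM in A5-KO PPs and 5.71 and 5.70 CPM in WT PPs. In hILOs it was at 19.1 and 17.6 TPM in A5-KO and at 5.70 and 6.42 TPM in WT. The stage change was thus 1.1 in A5-KO and -1.15 in WT (difference 2.25, SE 0.15, limma adjusted *p* = 0.001), so *DIO3* is among the 6 genes that passed the limits in opposite directions. *DIO1* was at 68.3 and 60.9 TPM in A5-KO hILOs and 16.7 and 17.3 TPM in WT hILOs, from 0.176 CPM or less in PPs (difference 1.60, SE 0.20, adjusted *p* = 0.0072, and 0.58 with a pseudocount of 0.1). The receptors *THRA* and *THRB* had stage changes of -0.19 and -0.06 in A5-KO and no called difference.

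Hepatic genes were higher in hILOs in both genotypes, and differed from WT in both directions. Of 21 tested, 19 were higher and none was lower in each genotype (90.5% higher in A5-KO, against 23.3% of all genes tested). In A5-KO 6 (28.6%, against 3.93% of all genes) had a more positive and 5 (23.8%, against 4.3%) a more negative stage change. Within a stage, 6 (28.6%, against 1.02% of all genes) were higher in A5-KO than in WT in PPs. In hILOs 7 (33.3%, against 5.38%) were higher and 4 (19.05%, against 5.54%) lower. *ALB*, serum albumin, was at 16.6 and 14.4 CPM in A5-KO PPs and 4.51 and 4.49 CPM in WT PPs, and at 1914 and 1846 TPM in A5-KO hILOs and 934 and 929 TPM in WT hILOs. Being higher in A5-KO by 1.42 in PPs and 1.34 in hILOs (limma, adjusted *p* = 0.00027 and 0.00011), it had stage changes of 6.74 and 6.83, which were not called as different (difference -0.09, SE 0.08, adjusted *p* = 0.51). *AFP*, α-fetoprotein, was at 1343 and 1294 CPM in A5-KO PPs and 563 and 551 CPM in WT PPs, whereas hILOs were at 6446 and 6255 TPM and at 5535 and 5732 TPM. Its stage change was blunted, at 1.95 against 2.92, with the difference in PPs (1.11, adjusted *p* = 0.0011) and not in hILOs (0.14, adjusted *p* = 0.17). *TTR*, transthyretin, a carrier of thyroid hormone, was at 35.1 and 35.7 CPM in A5-KO PPs and 6.6 and 7.41 CPM in WT PPs, and at 18674 and 18749 TPM in A5-KO hILOs against 7527 and 7550 TPM in WT hILOs. It was higher in A5-KO at both stages, by more in PPs (2.18) than in hILOs (0.99), so that its stage change was smaller (7.92 against 9.11, SE 0.10, adjusted *p* = 0.0027, and 0.079 with ranks of the CPM not divided by length).

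The 3 fibrinogen chains, which lie side by side on chromosome 4 (chr4:154563011-154612967), crossed over between the stages. *FGB* was at 16.9 and 15.3 CPM in A5-KO PPs and 4.56 and 3.07 CPM in WT PPs, but at 737 and 748 TPM in A5-KO hILOs and 1362 and 1394 TPM in WT hILOs. A5-KO was thus higher by 1.57 in PPs (limma, adjusted *p* = 0.0016) and lower by 0.86 in hILOs (adjusted *p* = 0.0026), and the stage change was 5.38 against 7.82 (difference -2.44, SE 0.14, adjusted *p* = 0.00087). *FGG* and *FGA* followed the same course, with stage changes of 5.14 against 7.42 and of 2.13 against 3.77 (adjusted *p* = 0.0032 and 0.0071). *APOA2* and *TF* had more positive stage changes in A5-KO. *APOA2* was at 57.3 and 71.4 CPM in A5-KO PPs and 63.1 and 74.4 CPM in WT PPs, which overlap, and at 3793 and 3810 TPM in A5-KO hILOs and 839 and 836 TPM in WT hILOs (stage changes 3.87 and 1.32, difference 2.54, SE 0.16, adjusted *p* = 0.00087). *TF*, transferrin, was at 2.07 and 1.67 CPM in A5-KO PPs, 8.59 and 8.64 TPM in A5-KO hILOs and 1.39 and 1.2 TPM in WT hILOs (difference 2.30, adjusted *p* = 0.0009). *APOA1* and *APOC3*, which like *APOA2* belong to lipoprotein particles, had stage changes of 2.34 and 4.59 in A5-KO and differences of -0.39 and -0.32 that were not called (adjusted *p* = 0.058 and 0.17).

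**Figure D4:**
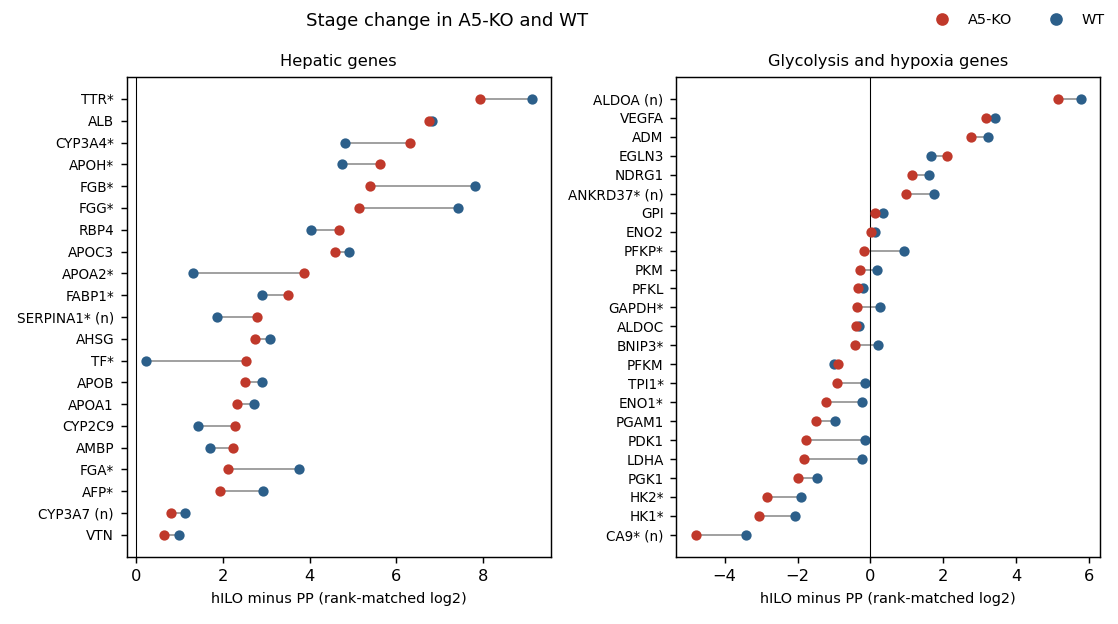
Stage change (hILO minus PP, rank-matched log2 level, horizontal axis) of hepatic genes and of glycolysis and hypoxia genes, with A5-KO in red, WT in blue and a line joining the genotypes of each gene. An asterisk marks a called difference and (n) a PP level that is not readable. In the hepatic panel *APOA2* and *TF* have the red point to the right and *FGA*, *FGB* and *FGG* to the left of the blue point, and in the glycolysis panel the red point lies to the left for 22 of 24 genes.

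Of 17 intestinal and gastric genes tested, 6 (35.3%) were higher and 4 (23.5%) lower in A5-KO hILOs, against 23.3% and 30.5% of all genes tested, and 7 and 4 were in WT. *FABP2* and *LGALS4*, genes of enterocytes, were higher by 5.26 and 4.55 in A5-KO without a called difference. *SI*, sucrase-isomaltase, was at 65.9 and 66.0 TPM in A5-KO hILOs and 21.8 and 22.4 TPM in WT hILOs, from 1.39 CPM or less in PPs (difference of stage changes 1.27, SE 0.13, limma adjusted *p* = 0.0039). *TFF3*, a secreted peptide of goblet cells, started lower in A5-KO PPs (10.0 and 13.1 CPM against 27.9 and 35.2 CPM) and ended at 103 and 101 TPM against 119 and 105 TPM, with stage changes of 0.98 and -0.42 (adjusted *p* = 0.016, and 0.056 without replicate 2 of the WT hILOs). *SOX2*, a factor of foregut and stomach, was at 4.32 and 4.18 TPM in A5-KO hILOs and 15.7 and 14.7 TPM in WT hILOs (difference -1.26, SE 0.14, adjusted *p* = 0.005). Genes of enterochromaffin cells were higher in hILOs for 8 of 10 in A5-KO (80%, against 23.3% of all genes tested) and 9 of 10 in WT. These cells make serotonin and arise beside beta cells in such cultures. Their enzyme *TPH1* had stage changes of 6.44 and 7.01, a difference below the size limit (-0.57, adjusted *p* = 0.035), and *TAC1*, the substance P precursor, was at 8.74 and 9.56 TPM in A5-KO hILOs against 33.3 and 33.6 TPM in WT hILOs (difference -2.17, adjusted *p* = 0.011, and 0.13 with a pseudocount of 0.1).

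Of 15 duct and exocrine genes tested, 4 (26.7%) were higher and 3 (20%) lower in A5-KO hILOs, near the 23.3% and 30.5% of all genes tested. The stage change was more positive in A5-KO for 3 (20%, against 3.93% of all genes). *CEL*, a pancreatic lipase, was at 8.96 and 7.80 TPM in A5-KO hILOs and 3.9 and 4.26 TPM in WT hILOs, with PP values of 4.36 and 4.74 CPM and of 5.40 and 4.43 CPM (stage changes -0.11 and -1.41, limma adjusted *p* = 0.0086). *SLC4A4*, the bicarbonate transporter of ducts, was lower by 3.18 in A5-KO and by 3.89 in WT, a difference that was lost in 4 of the 8 fits that left out a library (adjusted *p* up to 0.078). *KRT19*, a duct keratin, had a stage change of -0.12 in A5-KO and -0.67 in WT, below the size limit. *PRSS2*, trypsin 2, was not readable in PPs, and its call was lost without replicate 2 of the WT PPs (adjusted *p* = 0.054).

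Some glycolytic and hypoxia genes had a more negative stage change in A5-KO. Of 24 tested, 8 (33.3%) were lower and 5 (20.8%) higher in A5-KO hILOs than in A5-KO PPs, near the 30.5% and 23.3% of all genes tested, against 5 and 6 in WT. Of the differences 22 were below 0 and 9 (37.5%) were called, all more negative, against 4.3% of all genes tested. These calls ranged from 6 to 11 over the alternatives, and the other 15 genes were not called. In hILOs 16 of the 24 (66.7%) were lower in A5-KO than in WT, against 5.54% of all genes, and in PPs 1 was. *ENO1*, enolase, was at 2997 and 3246 CPM in A5-KO PPs and 3341 and 3542 CPM in WT PPs, and at 1047 and 1009 TPM in A5-KO hILOs and 2011 and 1970 TPM in WT hILOs (stage changes -1.23 and -0.24, difference -0.98, SE 0.08, limma adjusted *p* = 0.0025). *PFKP*, a phosphofructokinase, had stage changes of -0.17 and 0.93 (difference -1.10, adjusted *p* = 0.0036), *HK2*, a hexokinase, of -2.83 and -1.91 (adjusted *p* = 0.0082), and *TPI1* and *GAPDH* had differences of -0.78 and -0.64 (adjusted *p* = 0.00087 and 0.001). *HK1* was called at -0.99, and its call was lost without either WT PP library (adjusted *p* up to 0.056). The hypoxia-induced *BNIP3* was called at -0.64 (adjusted *p* = 0.0073). *VEGFA*, which hypoxia also induces, was higher by 3.17 in A5-KO and 3.41 in WT without a called difference (adjusted *p* = 0.18).

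Genes of mesenchyme, pluripotent cells and neurons gave mixed results. Of 15 mesenchyme and matrix genes tested, 11 were lower in hILOs in each genotype (73.3% in A5-KO, against 30.5% of all genes tested). *FN1*, fibronectin, was at 3599 and 3408 CPM in A5-KO PPs and 3303 and 3416 CPM in WT PPs, and at 119 and 118 TPM in A5-KO hILOs and 273 and 279 TPM in WT hILOs (difference -1.24, SE 0.07, limma adjusted *p* = 0.00071). *VIM* and *LOX*, an intermediate filament and a collagen cross-linking enzyme, were more negative by 1.13 and 1.89 (adjusted *p* = 0.00087 and 0.00096). *COL1A2* was the contrary case, at 19.0 and 15.6 TPM in A5-KO hILOs and 5.98 and 2.65 TPM in WT hILOs (difference 2.30, SE 0.44, adjusted *p* = 0.024), and its call was lost in 6 of the 8 fits that left out a library (adjusted *p* up to 0.087). *COL1A1*, its partner chain in collagen I, had stage changes of -2.56 in A5-KO and -1.82 in WT (adjusted *p* = 0.18). *LIN28A*, an RNA-binding protein of pluripotent and early fetal cells, was at 246 and 230 CPM in A5-KO PPs against 119 and 115 CPM in WT PPs, and hILOs were at 3.87 and 3.78 and at 4.57 and 5.31 TPM. Its larger decrease in A5-KO (-5.92 against -4.75, adjusted *p* = 0.0051) went with a higher level in PPs, by 1.00 (adjusted *p* = 0.0051).

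Of 11 neural genes tested, which islet cells partly share, 9 were higher in hILOs in each genotype. In A5-KO these were 81.8%, against 23.3% of all genes tested. The neurofilaments *NEFL* and *NEFM* were at 106 and 102 TPM and at 476 and 463 TPM in A5-KO hILOs, against 50.8 and 50.0 TPM and 216 in both libraries of WT hILOs. Their stage changes were more positive in A5-KO by 1.01 and 1.13 (limma, adjusted *p* = 0.0032 and 0.017). The call for *NEFM* was lost in 5 of the 8 fits that left out a library (adjusted *p* up to 0.056), as was that for *GAP43*, a growth cone protein (up to 0.082). *SOX1*, *PAX3* and *ELAVL4*, which define neural cells, were at 0.0618 or less in all A5-KO libraries, and *STMN2* was at 420 and 406 TPM in A5-KO hILOs and 450 and 457 TPM in WT hILOs.

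The m6A machinery was lower in hILOs for 10 of 20 genes (50%) in A5-KO, against 30.5% of all genes tested. In WT 8 of 20 were lower, against 29.7% of all genes. *ALKBH5* had the only called difference. The methyltransferase subunits *METTL3* and *METTL14* had stage changes of -0.17 and -0.99 in A5-KO and of -0.00 and -0.99 in WT. The other demethylase, *FTO*, was at 34.5 and 29.1 CPM in A5-KO PPs and 4.94 and 4.68 TPM in A5-KO hILOs, and its stage changes were -0.62 and -0.41 (limma, adjusted *p* = 0.45). The reader *YTHDF2*, which marks transcripts for decay, had stage changes of -1.38 and -1.18 (adjusted *p* = 0.49). Among 22 genes of the unfolded protein response and secretory load, 3 (13.6%) were higher and 2 (9.09%) lower in A5-KO. Over all genes tested the shares were 23.3% and 30.5%. *PDIA4*, a disulfide isomerase, and *TRIB3*, a stress-induced pseudokinase, had more negative changes, by 0.59 and 1.05 (limma, adjusted *p* = 0.0038 and 0.0074). These were 9.09% of the 22 genes, against 4.3% of all genes. *PDIA4* lay so near the size limit that its call was lost in 4 of the 8 fits that left out a library.

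The largest negative differences of stage changes included genes that were low in A5-KO hILOs and not in WT hILOs. *TMEM176A* and *TMEM176B*, neighbouring genes of membrane proteins, were at 0.175 and 0.424 TPM and at 0.746 and 1.54 TPM in A5-KO hILOs, against 113 and 105 TPM and 81.7 and 87.9 TPM in WT hILOs, with 0.155 CPM or less in all PP libraries. The increase seen in WT, 6.43 and 5.84, was 0.26 and 0.82 in A5-KO (limma, adjusted *p* = 0.00035 and 0.00047). *EPHB2*, an ephrin receptor, was at 40.3 and 42.0 CPM in A5-KO PPs and 40.6 and 48.3 CPM in WT PPs, and at 0.332 and 0.302 TPM in A5-KO hILOs and 10.6 and 10.3 TPM in WT hILOs (difference -2.88, SE 0.18, adjusted *p* = 0.00087). *PLCL1* had stage changes of -0.63 and 2.40 (difference -3.03, adjusted *p* = 0.0029).

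In the positive direction, *SRRM3*, a splicing regulator of neuronal and endocrine microexons, was at 0.216 and 0.205 CPM in A5-KO PPs and 16.1 and 22.6 CPM in WT PPs, and at 1.60 and 4.16 TPM in A5-KO hILOs and 1.94 and 2.2 TPM in WT hILOs. It was higher in hILOs by 1.29 in A5-KO and lower by 2.48 in WT (difference 3.78, SE 0.47, limma adjusted *p* = 0.0067), and the genotypes parted in PPs (-3.35, adjusted *p* = 0.0063). *CRP*, C-reactive protein, was at 0 in every PP library, 17.4 and 14.5 TPM in A5-KO hILOs and 0.292 and 0.413 TPM in WT hILOs (difference 3.71, adjusted *p* = 0.00042). Besides *SRRM3* and *DIO3*, the genes with opposite calls were *ACTN3* and *NUDT4*, higher in A5-KO and lower in WT, and *CALCR* and *WNT8B*, lower in A5-KO and higher in WT. *CALCR*, the calcitonin receptor, was at 0.958 and 0.828 TPM in A5-KO hILOs and 12.5 and 16.7 TPM in WT hILOs (stage changes -1.81 and 1.05, adjusted *p* = 0.003). *NUDT4* has a near-identical copy, *NUDT4B*, and its values are uncertain.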

How the data were processed

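RNA-seq of A5-KO and WT hILOs and untreated PPs was analysed, with 2 libraries per group. For hILOs the authors deposited TPM per gene, and for PPs CPM per gene. Per the labels, HISAT2 2.1.0 and fastp were among the tools, and the counter and annotation behind the CPM are not given in the sources used here. Genes were matched to GENCODE release 44 (GRCh38), whose coordinates are given. PP CPM were divided by exon length. The 13 mitochondrial protein-coding genes, listed at 0 in hILOs, and Y-linked genes were left out, and the remaining 19836 protein-coding genes were ranked per library and given rank-matched levels. Genotype effects within each stage and their difference were fitted to log2(level + 1) over all 8 libraries with limma 3.58.1 in R 4.3.3, using Benjamini-Hochberg adjustment over 14297 genes, and the fit was tested on simulated data. No test was made between hILOs and PPs. A fold change on this scale understates that of low genes. The CPM were whole multiples of 1 read for 100% of values, and edgeR 4.0.16 on the recovered reads called 210 higher and 183 lower of 12374 genes in A5-KO PPs. Promoters of chromosome 8 were not searched for motifs.

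Members, gene lists and tests were chosen with earlier results of these data known. The rule for named genes took *ALKBH5*, the hormones and the genes that the study follows at these stages. It added up to 4 members of each list with the largest stage change in A5-KO and up to 4 with a called difference, and, over all genes, the 5 largest stage changes each way, the 5 largest differences each way and up to 3 genes each way with opposite calls. Other list members were named for their role after their values were seen. Alternatives changed the pseudocount, the filter, the ranking, the scaling, the genes kept, the fit and the libraries. Results of some genes that the rule takes are not reported here.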

Additional observations from a re-analysis of the deposited data

Results flagged for a closer look

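The stage change differed between A5-KO and WT, by the test of the difference itself, for 562 genes in the positive and 615 in the negative direction. The named genes among them are given here with the difference, A5-KO minus WT, on the rank-matched log2 scale, by limma with Benjamini-Hochberg adjustment over 14297 genes. No explanation was weighed for any of them.

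Among islet genes, the change was more negative for the hormones *INS* (-0.74), *GCG* (-0.84), *SST* (-1.59) and *PPY* (-2.30). It was more negative also for the processing enzymes *PAM* (-1.89) and *PCSK1* (-0.67), the factors *RFX6* (-0.95), *HHEX* (-1.43) and *IRX1* (-0.95), the glucose transporter *SLC2A2* (-0.81) and the synaptotagmin *SYT13* (-0.59). It was more positive for *SCG2* (1.34), *NEUROD1* (1.03), *G6PC2* (1.08) and *ADRA2A* (1.08), of which *ADRA2A* encodes an adrenergic receptor.

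The named replication and mitosis genes with a called difference were more negative, namely *CDK1* (-1.28), *CCNA2* (-1.23), *BUB1* (-1.19), *BIRC5* (-0.997), *MCM2* (-1.09), *TPX2* (-0.89) and *CDC20* (-0.81). So were the progenitor genes *FOXA1* (-1.35), *HES1* (-1.03) and *YAP1* (-0.73) and *LIN28A* (-1.17) and *SOX2* (-1.26), while the Notch target *HEY2* (0.77) was more positive. In the signalling groups, *FST* (2.95) was more positive and *LEFTY1* (-1.41), *ID2* (-0.99), *ID4* (-0.90) and *ETV4* (-0.86) were more negative. The targeted gene *ALKBH5* itself had a difference of -1.19.

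The metallothioneins *MT1G* (-1.91) and *MT1H* (-4.13) were more negative, and the thyroid hormone genes *DIO1* (1.60) and *DIO3* (2.25) more positive. Of the genes of liver, *AFP* (-0.97), *TTR* (-1.19), *FGB* (-2.44) and *FGG* (-2.28) were more negative and *APOA2* (2.54), *APOH* (0.87), *TF* (2.30), *CRP* (3.71), *CYP3A4* (1.503) and *GC* (3.50) more positive. Of the other endoderm genes, *GAST* (0.85), *FXYD2* (0.98), *SI* (1.27), *TFF3* (1.41), *OLFM4* (0.87), *CEL* (1.301), *PRSS2* (1.83) and *SLC4A4* (0.71) were more positive and *TAC1* (-2.17) was more negative.

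Of the glycolysis and hypoxia genes, *ENO1* (-0.98), *PFKP* (-1.10), *HK1* (-0.99) and *CA9* (-1.40) were more negative, as were the stress genes *PDIA4* (-0.59) and *TRIB3* (-1.05). Matrix and cytoskeleton genes parted, with *FN1* (-1.24), *VIM* (-1.13) and *LOX* (-1.89) more negative and *COL1A2* (2.30) more positive, and the neural genes *NEFL* (1.01), *NEFM* (1.13) and *GAP43* (1.44) were more positive. Among the genes with the largest or opposite differences, *TMEM176A* (-6.17), *TMEM176B* (-5.02), *PLCL1* (-3.03), *EPHB2* (-2.88), *CALCR* (-2.86), *LGI4* (-2.72), *WNT8B* (-2.32) and *CKB* (-1.32) were more negative and *SRRM3* (3.78), *NUDT4* (2.53) and *ACTN3* (2.31) more positive. The calls for *ADRA2A*, *IRX1*, *OLFM4* and *CA9* were lost in 6, 8, 7 and 6 of the 8 fits that left out a library. With a pseudocount of 0.1 the calls for *APOH* and *CYP3A4* were lost (adjusted *p* = 0.050 and 0.15), and that for *FXYD2* was lost with this pseudocount and with a replicate block (adjusted *p* up to 0.11).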

How the results depend on the processing

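The stage comparison in A5-KO, 3332 genes higher and 4514 lower in hILOs, gave 1930 and 1353 with a size limit of 2. It gave 2529 lower genes with a mean of at least 1 in both tables and 2981 with readable genes only, settings that rank or keep fewer genes. Leaving out 1 library gave 3332 to 3367 higher and 4493 to 4611 lower genes. The difference of stage changes, 562 more positive and 615 more negative genes, gave 330 more positive genes when readable genes with a mean of at least 1 in both tables were kept. Leaving out 1 library gave 251 to 482 and 307 to 612, lowest without replicate 2 of the WT PPs, and the cause was not tested. A replicate block gave 378 and 483. The replicate numbers were not used as pairs in the main fit. Libraries of the 2 genotypes with equal numbers deviated from their group means with a correlation of -0.017 in hILOs and 0.12 in PPs. Whether equal numbers mark a shared batch or differentiation cannot be told from these values, and the labels do not say. Of 81 named genes with a called difference, 48 kept the call in every alternative and 52 in every alternative other than those that left out a library, and no named difference was reversed. At a pseudocount of 0.1, 17 of 148 single-gene results lost their call, mostly of genes near 0 in PPs. hILO values carry no read depth, so no limit from counting error can be given for them. The settings with readable genes and the test on recovered reads were chosen after seeing the data.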
